A study of Mus musculus with 9 samples.

Results

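The transcripts described here encode receptors that natural killer (NK) cells use to read the surface of other cells: Klrd1, Klrc1, Klrc2, Klrk1, Klre1, Klrg1 and Klrb1c, which are C-type lectin-like receptors, and Ncr1, an immunoglobulin-type receptor. They were taken by gene symbol from the deposited expression table, where all 8 were found among 32761 genes. The tumours were hepatocellular carcinomas grown in the livers of mice from Hepa1-6-luc cells, a mouse hepatoma line that carries luciferase. RNA was sequenced for 3 of the 6 arms of the study, as 3 libraries per arm, from tumours collected on day 14. Control mice had the same tumours, and the labels do not say what they were injected with. The group Lenvatinib+anti-PD1 was given free lenvatinib, a small-molecule inhibitor of receptor tyrosine kinases, every 3 days, and an antibody against the checkpoint receptor PD1 at 50 μg per injection every 4 days. The group Co+Len@OVA+anti-PD1 was given the same antibody on the same schedule and, every 3 days, drug-loaded nanoclusters at 2 mg/mL, and the free drug was matched to that concentration. The labels spell out neither Co nor OVA and name no strain, sex or age of the mice. Each library was made from polyadenylated RNA of whole tumour tissue, so each value is an average over tumour, liver, blood and immune cells, and a change in the number of cells of a type cannot be told apart from a change in RNA per cell. The unit is FPKM, in which fragments are divided by transcript length and by library size.

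NK cells carry receptors with opposite signs. CD94, the product of Klrd1, pairs with NKG2A (Klrc1) into an inhibitory receptor, or with NKG2C (Klrc2) into an activating one, and both pairs read the non-classical MHC molecule Qa-1. NKG2D (Klrk1) activates on contact with stress-induced ligands, KLRG1 (Klrg1) inhibits on binding cadherins, and NKp46 (Ncr1) and NK1.1 (Klrb1c) activate and are used in mice to identify NK cells. CD8 T cells can also make CD94, NKG2A, NKG2D and KLRG1 after activation, so these transcripts are shared between lineages, whereas Ncr1 and Klrb1c are more closely tied to NK cells and related innate lymphoid cells.

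In the RefSeq table, whose assembly is GRCm38.p6, 7 of the 8 genes lie on chromosome 6, in the order Klrg1, Klrb1c, Klre1, Klrd1, Klrk1, Klrc2 and Klrc1, and Ncr1 lies on chromosome 7. The table holds promoters, 250 bases before to 50 bases after a transcription start, for 6 of the genes: Klrb1c, Klre1, Klrk1, Klrc2, Klrc1 and Ncr1. The next lines give 4 of them, chosen because Klrc1 and Klrc2 encode alternative partners of CD94, the 3 groups did not overlap in their levels of Klre1, and Ncr1 is the gene most closely tied to NK cells. Each runs 5′ to 3′ on the gene's own strand, and capitals mark matches, on either strand, to a T-box half-site (TCACAC) or a RUNX-type site (TGNGGT), the letters associated with the NK cell transcription factors T-bet, Eomes and Runx3. The windows are chr6:129678924-129679223 on the minus strand for Klrc1, chr6:129660547-129660846 on the minus strand for Klrc2, chr6:129577963-129578262 on the plus strand for Klre1 and chr7:4337465-4337764 on the plus strand for Ncr1.
Klrc1: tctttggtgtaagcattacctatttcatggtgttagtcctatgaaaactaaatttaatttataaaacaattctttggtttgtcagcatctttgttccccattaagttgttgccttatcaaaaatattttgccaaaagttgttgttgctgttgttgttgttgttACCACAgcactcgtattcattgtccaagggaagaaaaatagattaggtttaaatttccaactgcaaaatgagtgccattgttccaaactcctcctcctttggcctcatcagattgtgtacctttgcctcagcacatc
Klrc2: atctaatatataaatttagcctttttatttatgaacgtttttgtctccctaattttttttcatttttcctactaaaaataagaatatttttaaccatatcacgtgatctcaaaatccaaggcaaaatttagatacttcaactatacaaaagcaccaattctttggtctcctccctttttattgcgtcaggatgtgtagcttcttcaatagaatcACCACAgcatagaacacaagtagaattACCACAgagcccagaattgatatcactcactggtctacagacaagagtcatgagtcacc
Klre1: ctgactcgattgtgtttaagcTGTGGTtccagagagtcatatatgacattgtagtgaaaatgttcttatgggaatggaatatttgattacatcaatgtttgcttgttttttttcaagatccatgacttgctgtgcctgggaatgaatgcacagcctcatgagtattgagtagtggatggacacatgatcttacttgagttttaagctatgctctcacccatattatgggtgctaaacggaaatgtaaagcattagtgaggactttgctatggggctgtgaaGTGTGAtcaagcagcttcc
Ncr1: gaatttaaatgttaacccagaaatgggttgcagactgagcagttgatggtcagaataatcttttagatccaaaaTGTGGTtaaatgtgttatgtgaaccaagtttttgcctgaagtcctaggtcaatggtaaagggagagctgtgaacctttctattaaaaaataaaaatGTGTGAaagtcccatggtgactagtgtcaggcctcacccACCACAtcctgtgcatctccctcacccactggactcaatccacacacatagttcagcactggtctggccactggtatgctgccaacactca

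Klre1, Klrc2 and Ncr1 each have 2 listed promoters, and the first-listed promoter of each gene is used here. The T-box letters were found once in the promoter of Klre1 and once in that of Ncr1, and in 2 of the 6 promoters in all. RUNX-type letters were found in 6 of 6, with 2 matches each in Klrc2 and Ncr1. The other listed promoter of Klre1 held no RUNX-type letters. Among all 32544 promoters in the table, 14.3% held TCACAC and 45.9% held TGNGGT. In a global alignment the promoters of Klrc1 and Klrc2 matched at 51.3% of bases, inside the range of 49% to 55.7% over all pairs of the 6 genes. A match describes letters in a window and not a bound site.

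The transcripts share more sequence. Cut into windows of 50 bases, 38.6% of the windows in Klrc1 transcripts also occurred in another gene's transcripts, mostly Klrc2, as did 16.3% of those in Klrc2 and 18.2% of those in Klrb1c, the last mostly shared with the gene model Gm44511. The values of Klrc1, Klrc2 and Klrb1c are therefore uncertain to the extent that shared fragments were assigned to the wrong gene. No window of Klrd1, Klrk1, Klrg1 or Ncr1 was shared.

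Some libraries stood apart. The FPKM total per library lay between 331611 and 372794, and 23575 to 26298 genes were above 0. Control 1 was the lowest library of its group for 7 of the 8 genes, including Ncr1, which was 0 in all 3 Control libraries. In every group the third library lay between the first and the second for nearly all genes that differed more than 4-fold between those 2, for 94.65% of 355 such genes in Control, for 97.78% of 316 in Lenvatinib+anti-PD1, and for 97.83% of 369 in Co+Len@OVA+anti-PD1. Of the 8 receptor genes, whatever their difference, this held for 6 in Control, 2 in Lenvatinib+anti-PD1 and 6 in Co+Len@OVA+anti-PD1, ties included. Whether the third libraries are separate tumours cannot be read from the table, so counts of genes called are also given for libraries 1 and 2 alone. Statements on overlapping ranges and tests of ratios use all 9 libraries. Skeletal muscle transcripts summed to between 28.9 and 4180 FPKM in the Lenvatinib+anti-PD1 libraries, against at most 43.6 FPKM in the other groups. Their part in the results was not tested.

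The label NK was checked against the genes that define the lineage. Klrd1 and Klrc1 were by far the most abundant of the 8, with means over 9 libraries of 9.0 and 5.41 FPKM, while Klrb1c and Ncr1 were the lowest, at 0.119 and 0.0463 FPKM. Together Ncr1 and Klrb1c came to between 0.576% and 1.32% of the summed CD3 chains Cd3d, Cd3e and Cd3g in any library. Defining NK transcripts were thus near 0 in all 9 libraries while T cell transcripts were not, and these genes are called lectin-like receptors here without assigning them to NK cells.

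**Figure D1:**
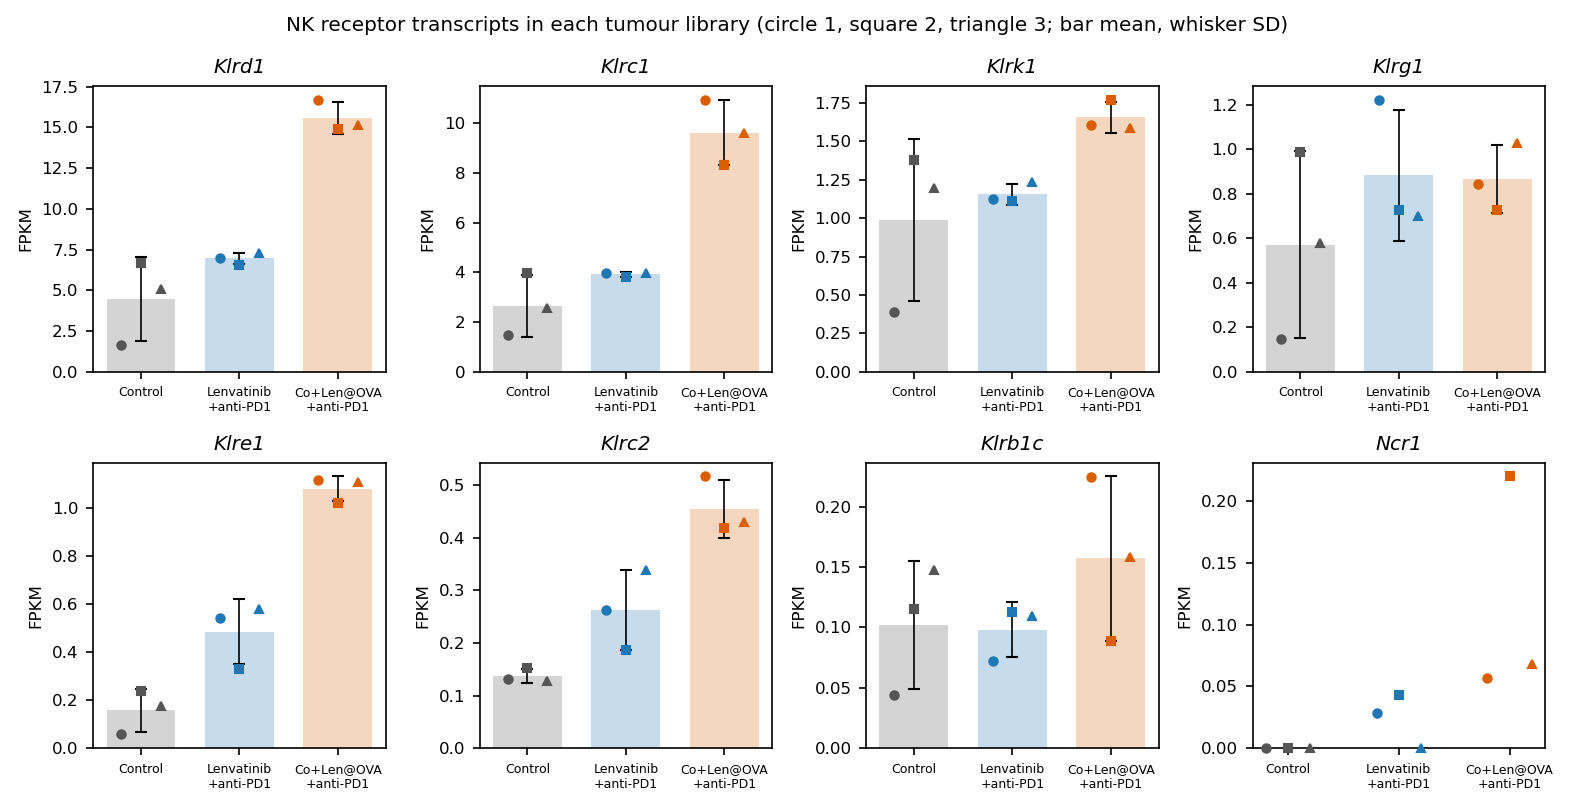
FPKM of the 8 receptor genes (y axis, linear, from 0, its own scale in each panel) in the 3 groups; points are libraries, bars the group means and whiskers the SD over 3 libraries, with no bar for Ncr1, which is listed at 0 in 4 libraries. All 3 Co+Len@OVA+anti-PD1 libraries lie above all Control and Lenvatinib+anti-PD1 libraries for Klrd1, Klrc1, Klrk1, Klre1, Klrc2 and Ncr1, and the groups overlap for Klrg1 and Klrb1c.

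The CD94 and NKG2A transcripts were higher after Co+Len@OVA+anti-PD1 than in Control, by 3.48-fold and 3.61-fold of the group means. Klrd1 stood at 1.67, 6.67 and 5.07 FPKM in Control libraries 1 to 3, at 7.01, 6.58 and 7.29 FPKM in Lenvatinib+anti-PD1, and at 16.7, 14.9 and 15.1 FPKM in Co+Len@OVA+anti-PD1. Control 1 was far below the other Control libraries, the lenvatinib libraries were close to Control 2, and the nanocluster libraries were above all others. Group means were 4.47 FPKM ± 2.56, 6.96 FPKM ± 0.358 and 15.6 FPKM ± 0.973 (SD, n = 3 each). In a limma fit on log2(FPKM + 0.5), a scale that understates changes of low genes, Klrd1 rose by 1.86 ± 0.38 (log2, SE) in Co+Len@OVA+anti-PD1 against Control, with an adjusted p of 0.00825. The difference was 1.35 without Control 1. Lenvatinib+anti-PD1 against Control gave 0.75 ± 0.38 with an adjusted p of 0.183, or 0.24 (adjusted p = 0.145) without Control 1, and Co+Len@OVA+anti-PD1 against Lenvatinib+anti-PD1 gave 1.11 ± 0.38 with an adjusted p of 0.0577. The last comparison passed without Control 1, at an adjusted p of 0.000174, and without Control 2, at 0.0308. Control libraries enter it through the shared estimate of the spread.

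Klrc1, the inhibitory partner, followed the same order. It stood at 1.47, 3.96 and 2.56 FPKM in Control, at 3.98, 3.82 and 3.97 FPKM in Lenvatinib+anti-PD1, and at 11.0, 8.34 and 9.60 FPKM in Co+Len@OVA+anti-PD1. The lenvatinib libraries were almost equal, with a mean of 3.92 FPKM ± 0.0880 (SD, n = 3), and overlapped with Control, whose mean was 2.67 FPKM ± 1.25 (SD, n = 3). The nanocluster mean was 9.63 FPKM ± 1.31 (SD, n = 3). Klrc1 rose by 1.75 ± 0.26 (log2, SE; adjusted p = 0.00235) against Control and by 1.19 ± 0.26 (adjusted p = 0.0121) against Lenvatinib+anti-PD1. Lenvatinib+anti-PD1 against Control gave 0.56 (adjusted p = 0.151), which was 0.26 (adjusted p = 0.272) without Control 1 and 0.85 (adjusted p = 0.0202), a pass, without Control 2.

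Klrc2, the activating partner, was far lower. It stood at 0.131, 0.152 and 0.127 FPKM in Control, at 0.262, 0.187 and 0.338 FPKM in Lenvatinib+anti-PD1, and at 0.517, 0.417 and 0.429 FPKM in Co+Len@OVA+anti-PD1. The 3 groups did not overlap, and the nanocluster mean was 3.32-fold the Control mean. Klrc2 was below the filter for testing, a mean of 0.5 FPKM over the 9 libraries. In a fit of all 32761 genes, where 7.81% were called higher against Control, Klrc2 gave 0.58 with an adjusted p of 0.0133, and its differences for Lenvatinib+anti-PD1 against Control (0.25, adjusted p = 0.226) and between the treated groups (0.33, adjusted p = 0.101) did not pass, where 5.31% and 6.52% of genes were called higher.

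Within libraries the balance of the CD94 partners was similar. Klrc1 made up between 86.1% and 94.9% of the summed FPKM of Klrc1, Klrc2 and Klrc3. The ratio of Klrc1 to Klrc2 was 11.2, 26.0 and 20.1 in Control, 15.2, 20.5 and 11.8 in Lenvatinib+anti-PD1, and 21.2, 20.0 and 22.4 in Co+Len@OVA+anti-PD1. The ranges of all 3 groups overlapped, and Control varied most. With 0.5 FPKM added to each gene, which is more than Klrc2 itself in 8 of the 9 libraries, the mean log2 ratio differed by 1.17 between Co+Len@OVA+anti-PD1 and Control (exact two-sided permutation p = 0.1, the smallest that 3 against 3 allows; 0.225 adjusted over 9 ratio tests). Without that addition it differed by 0.23 (exact permutation p = 0.8). The log2 ratio of Klrc1 to Klrd1 differed by -0.11 between the same groups (exact permutation p = 0.9, where 0.1 is the smallest that can be reached).

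NKG2D showed a smaller difference. Klrk1 stood at 0.391, 1.38 and 1.20 FPKM in Control, at 1.13, 1.11 and 1.24 FPKM in Lenvatinib+anti-PD1, and at 1.61, 1.77 and 1.59 FPKM in Co+Len@OVA+anti-PD1. The nanocluster libraries were above all others, while the lenvatinib libraries lay inside the Control range. The difference from Control was 0.61 ± 0.26 (log2, SE; adjusted p = 0.0984) and from Lenvatinib+anti-PD1 0.38 (adjusted p = 0.281), and neither passed, although the first was 0.27 (adjusted p = 0.0829) without Control 1 and passed without Control 2 (0.81, adjusted p = 0.0403), and the second without Control 1 (adjusted p = 0.0140). Lenvatinib+anti-PD1 against Control gave 0.23 (adjusted p = 0.556), and -0.11 without Control 1.

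Klre1 encodes a receptor of NK cells that pairs with KLRI1 or KLRI2. It stood at 0.0593, 0.238 and 0.175 FPKM in Control, at 0.543, 0.330 and 0.579 FPKM in Lenvatinib+anti-PD1, and at 1.11, 1.02 and 1.11 FPKM in Co+Len@OVA+anti-PD1. The 3 groups did not overlap. Its mean over all libraries was 0.573 FPKM, so it passed the filter only through the group where it was high, and its calls in the filtered fit are not used. In the fit of all 32761 genes it rose by 1.27 ± 0.15 (log2, SE; adjusted p = 0.00211) in Co+Len@OVA+anti-PD1 against Control and by 0.69 (adjusted p = 0.0245) against Lenvatinib+anti-PD1. Lenvatinib+anti-PD1 against Control gave 0.58, which did not pass there (adjusted p = 0.0545). Its partners Klri1 and Klri2 were below the filter, with Klri2 at 0.117 to 0.288 FPKM in the Control and lenvatinib libraries and at 0.436 to 0.629 FPKM in the nanocluster libraries.

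KLRG1, a mark of mature NK cells and of short-lived effector CD8 T cells, did not separate the groups. Klrg1 stood at 0.146, 0.986 and 0.578 FPKM in Control, at 1.22, 0.725 and 0.701 FPKM in Lenvatinib+anti-PD1, and at 0.842, 0.728 and 1.03 FPKM in Co+Len@OVA+anti-PD1. All 3 ranges overlapped. The differences were 0.43 for each treated group against Control (adjusted p = 0.292 for Co+Len@OVA+anti-PD1 and 0.331 for Lenvatinib+anti-PD1) and -0.0035 ± 0.30 (log2, SE; adjusted p = 0.995) between the treated groups. Both differences from Control moved with the Control libraries, to 0.10 and 0.11 without Control 1 and to 0.70 and 0.71 without Control 2, and passed in neither case.

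The NK-defining receptors were at the bottom of the scale. Klrb1c stood at 0.0442, 0.115 and 0.148 FPKM in Control, at 0.0719, 0.113 and 0.110 FPKM in Lenvatinib+anti-PD1, and at 0.225, 0.0885 and 0.158 FPKM in Co+Len@OVA+anti-PD1, with all ranges overlapping. Ncr1 was listed at 0 in all 3 Control libraries, at 0.0284, 0.0433 and 0 FPKM in Lenvatinib+anti-PD1, and at 0.0568, 0.220 and 0.0679 FPKM in Co+Len@OVA+anti-PD1. Only the nanocluster libraries all showed Ncr1, and no fold is given against a group at 0. In the fit of all genes neither passed: Co+Len@OVA+anti-PD1 against Control gave 0.12 (adjusted p = 0.478) for Klrb1c and 0.29 (adjusted p = 0.0878) for Ncr1. As a share of the CD3 chains, Ncr1 and Klrb1c came to 1.17%, 0.764% and 1.32% in Control, 0.744%, 1.15% and 0.710% in Lenvatinib+anti-PD1, and 0.607%, 0.921% and 0.576% in Co+Len@OVA+anti-PD1, so their ranges overlapped. The 0.5 FPKM added to each sum is more than Ncr1 plus Klrb1c in every library, which ran from 0.0442 to 0.309 FPKM. With it, the mean log2 ratio differed by -1.75 between Co+Len@OVA+anti-PD1 and Control (exact permutation p = 0.1, or 0.225 adjusted over 9 ratio tests). Without it, the difference was -0.62 (exact permutation p = 0.2).

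**Figure D2:**
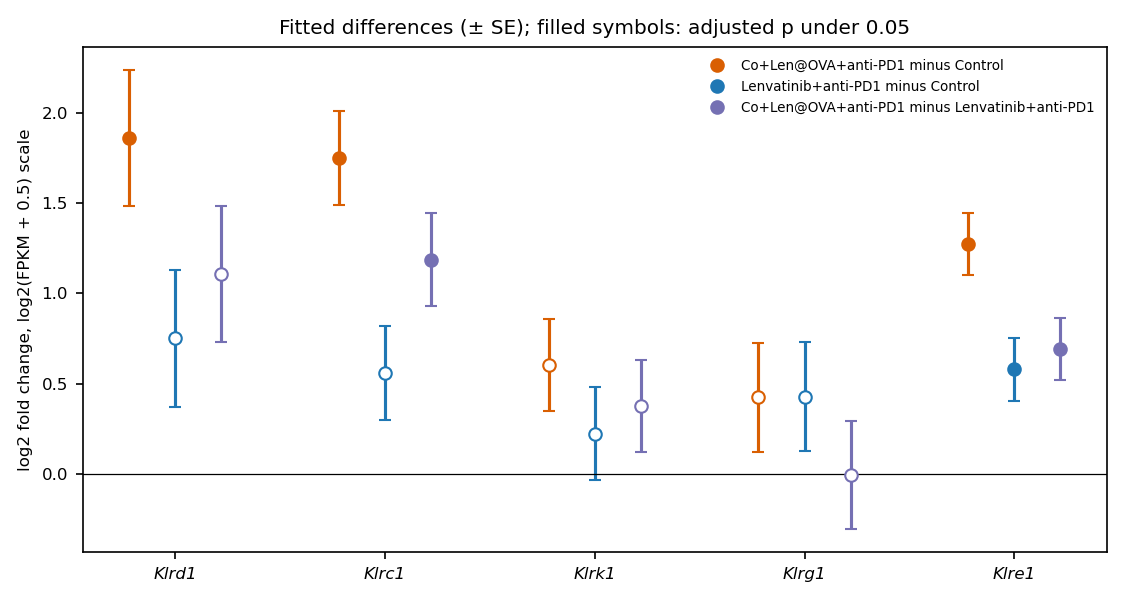
Log2 fold changes on the log2(FPKM + 0.5) scale (y axis) of the 5 receptor genes that passed the filter, in 3 comparisons; points are limma estimates, whiskers their SE, and filled points have an adjusted p under 0.05. Klrd1 and Klrc1 are filled in Co+Len@OVA+anti-PD1 against Control at 1.86 and 1.75, no comparison of Klrk1 or Klrg1 is filled, and Klre1 passed the filter only through the group where it was high.

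Read against the rest of the table, these counts were as follows. Of the 5 receptor genes that passed the filter, Klrd1, Klrc1 and Klre1 were called higher in Co+Len@OVA+anti-PD1 against Control and none lower, where 20.9% of the 15353 genes tested were called higher and 12.7% lower. Klre1 was the 1 called in Lenvatinib+anti-PD1 against Control (13.8% of all genes higher, 9.87% lower), and Klrc1 and Klre1 were called between the treated groups (17.3% higher, 12.0% lower). Since Klre1 passed only through its high group, these counts are given as a description. In the fit of all genes, 4 of the 8 (Klrd1, Klrc1, Klrc2 and Klre1), 0 of 8 and 2 of 8 (Klrc1 and Klre1) were called higher in the 3 comparisons. In the same fit 7.81%, 5.31% and 6.52% of all 32761 genes were called higher. All 8 genes can be counted by their ranges: 6 were higher without overlap in Co+Len@OVA+anti-PD1 than in Control (20.7% of all 32761 genes), 2 in Lenvatinib+anti-PD1 than in Control (16.1%; Klre1 and Klrc2), and 6 in Co+Len@OVA+anti-PD1 than in Lenvatinib+anti-PD1 (20.9%). The 2 comparisons with Control share its libraries. With libraries 1 and 2 of each group alone, limma called none of the 5 in any comparison, where 0.111%, 0.215% and 0.443% of all genes were called higher, and Klrd1, Klrc1 and Klre1 had unadjusted p of 0.0135, 0.00709 and 0.00779 against Control. Across all genes 3209 were called higher and 1946 lower against Control, and with median-of-ratios scaling 2216 and 2699, with the median log2 fold change at 0.13 and 0.021. The calls of Klrd1 and Klrc1 were kept under that scaling and under upper quartile scaling.

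The order of levels was steady at the top. Klrd1 exceeded Klrc1 in all 9 libraries, by 1.14 to 1.98 times, and their group ranges overlapped in Control only. In Co+Len@OVA+anti-PD1 the next were Klrk1 at 1.66 FPKM ± 0.101, Klre1 at 1.08 FPKM ± 0.0516 and Klrg1 at 0.866 FPKM ± 0.151 (SD, n = 3 each), and the last 2 overlapped. Klrc2 followed at 0.454 FPKM ± 0.0543, and Klrb1c and Ncr1, lowest, overlapped with each other.

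T cell transcripts moved with the receptors. Cd8a, a chain of the CD8 co-receptor, stood at 3.22, 12.1 and 9.53 FPKM in Control, at 11.5, 12.2 and 11.5 FPKM in Lenvatinib+anti-PD1, and at 42.4, 30.4 and 35.4 FPKM in Co+Len@OVA+anti-PD1. It rose by 2.22 (log2, adjusted p = 0.00496) against Control, and Cd3e, a chain of the T cell receptor complex, by 1.88 (adjusted p = 0.00615). Of 20 T cell markers tested, 18 rose and none fell against Control, where 20.9% of all genes rose and 12.7% fell, with a median of 1.62 against 0.13 over all genes tested, and their summed FPKM ran from 86.3 to 201 in Control, 179 to 186 in Lenvatinib+anti-PD1 and 386 to 564 in Co+Len@OVA+anti-PD1. Red cell, B cell and vessel transcripts also differed between the groups. All 5 erythroid markers rose against Control, with a median of 2.39, and summed to 295 to 602 FPKM in Control, 176 to 433 FPKM in Lenvatinib+anti-PD1 and 2063 to 2994 FPKM in Co+Len@OVA+anti-PD1. Of 5 B cell markers tested 1 rose (median 0.88), and the 8 in the table summed to 3.17 to 8.34, 3.11 to 3.37 and 8.67 to 19.9 FPKM in the same order of groups. Of 5 endothelial markers tested none passed (median 0.93), and the 7 in the table summed to 6.67 to 32.5, 11.5 to 23.3 and 26.4 to 48.6 FPKM. The part of blood and vessels in the receptor levels was not tested. Over the 9 libraries, log2 levels of Klrd1 and Klrc1 correlated with Cd8a at 0.988 and 0.989. Those of Klre1 correlated with it at 0.929, Klrk1 at 0.902, Klrc2 at 0.865, Klrb1c at 0.719, Klrg1 at 0.656 and Ncr1 at 0.637. Klrb1c and Ncr1 correlated with each other at 0.0405. With the hepatocyte marker Alb all receptor genes correlated negatively, from -0.537 for Klrg1 to -0.981 for Klrc1, with Klrd1 at -0.935. Klrb1c correlated with Cd4 at 0.905, above its value with Cd8a. These values describe 9 libraries of shared groups in which most immune transcripts move together. The parts of T cells and of liver tissue in the receptor changes were not tested.

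Set per Cd8a transcript, a description added after the values were seen, the receptors did not keep pace alike. The mean of Cd8a in Co+Len@OVA+anti-PD1 was 4.35-fold that in Control, so any gene whose mean rose less tends to be lower per Cd8a. The share of all genes whose groups do not overlap in this ratio was not computed. Klrd1 per Cd8a was 0.518, 0.551 and 0.533 in Control, 0.609, 0.541 and 0.636 in Lenvatinib+anti-PD1, and 0.394, 0.492 and 0.427 in Co+Len@OVA+anti-PD1, lowest in the nanocluster group with no overlap. Set per Cd3e, Klrd1 ran from 1.67 to 1.86 in Control, 1.90 to 2.15 in Lenvatinib+anti-PD1 and 1.42 to 1.76 in Co+Len@OVA+anti-PD1, where the nanocluster and Control ranges overlapped. Klrc1 per Cd8a overlapped as well, at 0.269 to 0.456 in Control and 0.259 to 0.275 in Co+Len@OVA+anti-PD1, with 0.314 to 0.346 in Lenvatinib+anti-PD1. Klrk1 per Cd8a was 0.121, 0.114 and 0.126 in Control, 0.0978, 0.0913 and 0.108 in Lenvatinib+anti-PD1, and 0.0380, 0.0584 and 0.0449 in Co+Len@OVA+anti-PD1, where the 3 groups did not overlap. Klre1 per Cd8a went the other way against Control only, at 0.0183 to 0.0197 in Control, 0.0271 to 0.0505 in Lenvatinib+anti-PD1 and 0.0263 to 0.0336 in Co+Len@OVA+anti-PD1. The ranges of the treated groups overlapped, with means of 0.04159 in Lenvatinib+anti-PD1 and 0.03035 in Co+Len@OVA+anti-PD1.

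**Figure D3:**
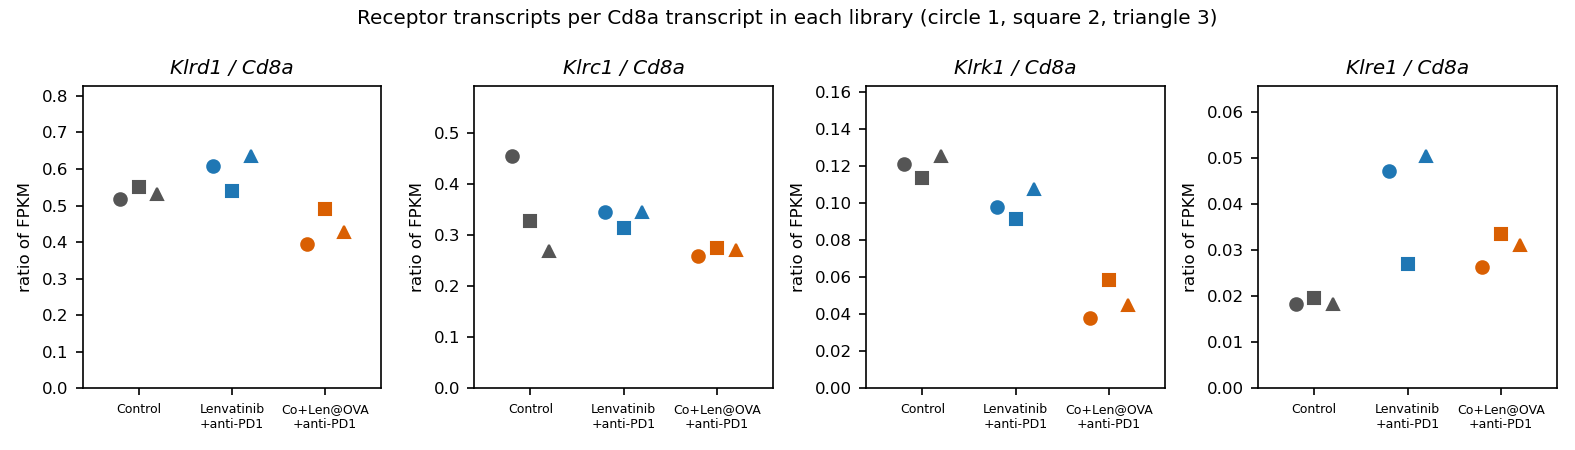
FPKM of Klrd1, Klrc1, Klrk1 and Klre1 divided by that of Cd8a in the same library (y axis, linear, from 0), by group; each point is a library. Klrk1 per Cd8a is between 0.0380 and 0.0584 in Co+Len@OVA+anti-PD1 and between 0.114 and 0.126 in Control, and Klre1 per Cd8a is lowest in Control.

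Activating receptors signal through adaptors that they share with myeloid and T cells. DAP10 (Hcst), the adaptor of NKG2D, stood at 1.21, 4.82 and 2.89 FPKM in Control, 3.21, 3.52 and 3.96 FPKM in Lenvatinib+anti-PD1, and 6.70, 7.09 and 7.00 FPKM in Co+Len@OVA+anti-PD1, and rose by 1.24 (log2, adjusted p = 0.0276) against Control. DAP12 (Tyrobp), the adaptor of NKG2C, which myeloid cells make in large amounts, was at 25.5 to 88.5 FPKM in Control, 28.5 to 34.3 FPKM in Lenvatinib+anti-PD1 and 96.0 to 126 FPKM in Co+Len@OVA+anti-PD1. It differed from Control by 1.04 (adjusted p = 0.0765) and rose by 1.83 (adjusted p = 0.0121) against Lenvatinib+anti-PD1. Of 17 adaptor and signalling genes tested, 6 rose and none fell against Control, beside 20.9% and 12.7% of all genes, with a median of 1.06, or 0.44 without Control 1. The largest differences were those of the T cell receptor kinases and scaffold Lck (2.07, adjusted p = 0.015), Lat (1.61, adjusted p = 0.00372) and Zap70 (1.47, adjusted p = 0.0169), and of the CD3 zeta chain Cd247 (1.41, adjusted p = 0.0162), which also serves NKp46. Lenvatinib+anti-PD1 against Control had no call with a median of -0.21, and 11 fell when Control 1 was left out, where the share of all genes called lower went from 9.87% to 17.4%. Co+Len@OVA+anti-PD1 against Lenvatinib+anti-PD1 had 9 higher, and 16 without Control 1, where the share of all genes called higher went from 17.3% to 27.5%. Summed myeloid markers were at 339 to 1379 FPKM in Control, 481 to 574 FPKM in Lenvatinib+anti-PD1 and 1895 to 2216 FPKM in Co+Len@OVA+anti-PD1. Of the 10 markers, 2 rose in Co+Len@OVA+anti-PD1 against Control, beside 20.9% of all genes, and 7 against Lenvatinib+anti-PD1, beside 17.3%. The part of myeloid cells in the adaptor levels was not tested.

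Genes of the ligand list, which also holds Clr genes, went in both directions. H2-T23, the heavy chain of Qa-1 that CD94 with NKG2A or NKG2C binds, stood at 71.6, 96.1 and 87.9 FPKM in Control, 107, 101 and 111 FPKM in Lenvatinib+anti-PD1, and 152, 134 and 144 FPKM in Co+Len@OVA+anti-PD1, with no overlap between groups. It rose by 0.76 (log2, adjusted p = 0.00208) against Control and by 0.43 (adjusted p = 0.0215) against Lenvatinib+anti-PD1, and Lenvatinib+anti-PD1 against Control gave 0.33 (adjusted p = 0.0641). Among ligands of NKG2D, Raet1d, of the RAE-1 family, stood at 0.313, 0.213 and 0.238 FPKM in Control, 0.492, 0.571 and 0.574 FPKM in Lenvatinib+anti-PD1, and 0.975, 0.608 and 0.730 FPKM in Co+Len@OVA+anti-PD1, and gave 0.74 against Control. It passed the filter only through the treated groups, and in the fit of all genes it rose (adjusted p = 0.0111). Ulbp1, which encodes MULT1, gave 0.31 (adjusted p = 0.122), and Raet1e was below the filter at 0 to 0.393 FPKM.

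The Clr molecules, a family that includes ligands of NKR-P1 receptors related to NK1.1, split. Clec2d rose by 1.38 (log2, adjusted p = 0.000901) in Co+Len@OVA+anti-PD1 and by 0.89 (adjusted p = 0.00719) in Lenvatinib+anti-PD1, each against Control. Clec2g, at 58.3, 51.0 and 53.4 FPKM in Control, fell to 29.4, 18.7 and 24.6 FPKM in Co+Len@OVA+anti-PD1, with a log2 difference of -1.17 (adjusted p = 0.00118), and Clec2f fell by 0.82 (adjusted p = 0.00353). Of the cadherins that KLRG1 binds, Cdh2 gave -0.33 (adjusted p = 0.00509) and Cdh1 -0.19 (adjusted p = 0.465). Of 11 ligand genes tested, 4 rose and 3 fell against Control, beside 20.9% and 12.7% of all genes, with a median of 0.27 (0.17 without Control 1), and under median-of-ratios and upper quartile scaling 3 rose and 3 fell. The 4 include Raet1d, which passed the filter only through the treated groups, so these counts are given as a description. Hepatocyte markers summed to 2388 to 5405 FPKM in Control and to 765 to 1071 FPKM in Co+Len@OVA+anti-PD1, with all 10 lower, and the part of liver tissue in the ligand levels was not tested.

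**Figure D4:**
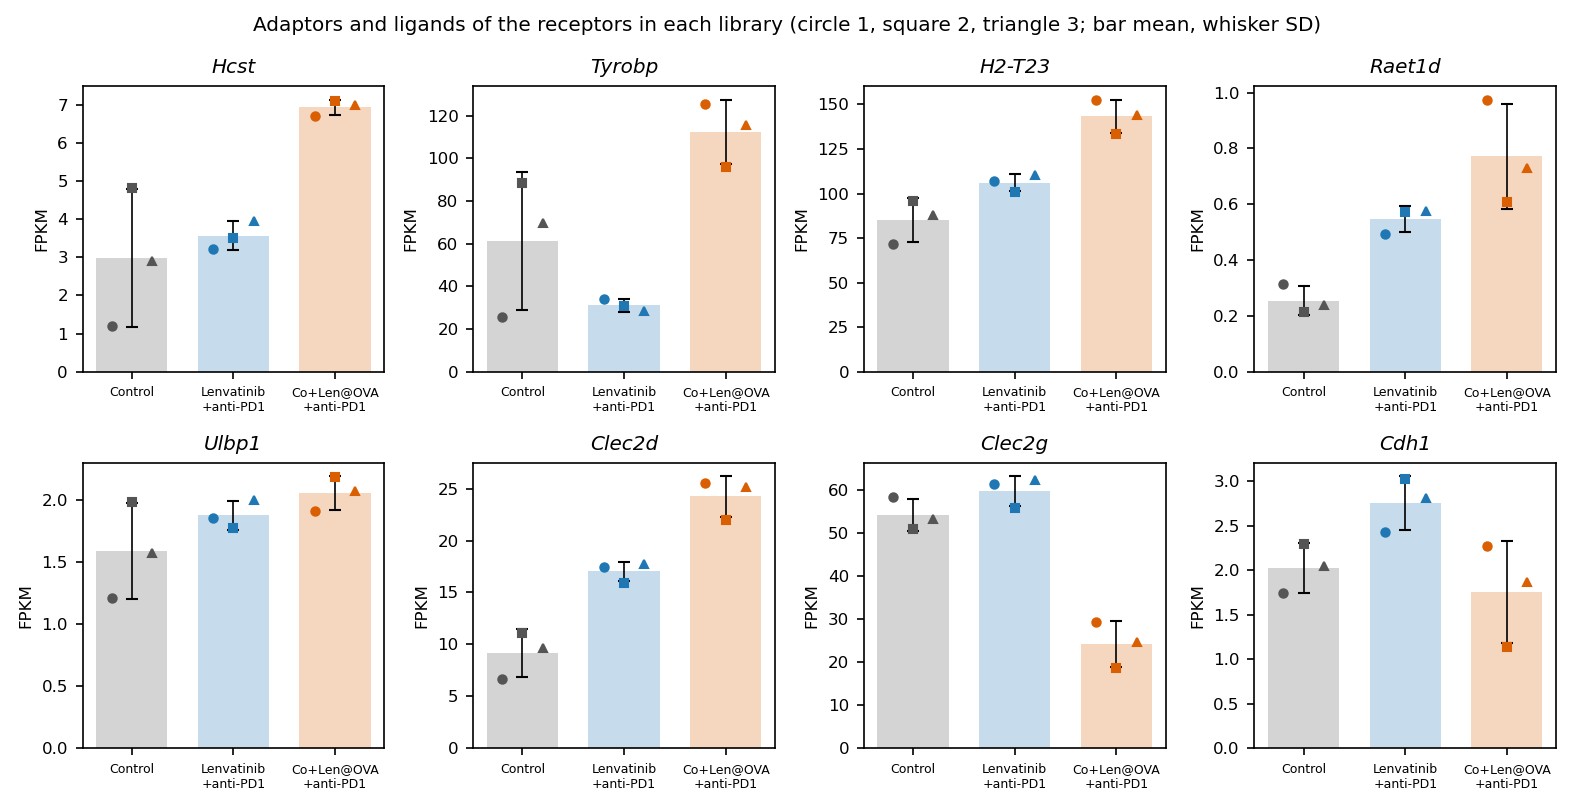
FPKM (y axis, linear, from 0, its own scale in each panel) in the 3 groups of the adaptors Hcst and Tyrobp, the ligand genes H2-T23, Raet1d, Ulbp1 and Cdh1, and the Clr genes Clec2d and Clec2g. Points are libraries, bars the group means and whiskers the SD over 3 libraries. H2-T23 is at 71.6 to 96.1 FPKM in Control and 134 to 152 FPKM in Co+Len@OVA+anti-PD1, and Clec2g is lowest in Co+Len@OVA+anti-PD1.

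Other lectin-like receptors of the same gene complex were mostly too low to test: 5 of 22 in the table passed the filter, of which 3 were called higher against Control and none lower, beside 20.9% and 12.7% of all genes. The median was 0.90, and without Control 1 it was 0.60 with 2 called. The 3 called were Clec2d, which is also in the ligand list, and the Ly49 genes Klra2 (0.89, adjusted p = 0.0165) and Klra3. Klra3 passed the filter only through the nanocluster group and gave 0.90 with an adjusted p of 0.0636 in the fit of all genes. The count of 3 includes Klra3 and is given as a description. Klra17 (0.98, adjusted p = 0.132) and Klrb1b (0.25, adjusted p = 0.583) did not pass.

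Transcription factors of NK cells and effector CD8 T cells changed in both directions. Tbx21, encoding T-bet, stood at 0.412, 1.68 and 1.22 FPKM in Control, 1.49, 1.90 and 1.56 FPKM in Lenvatinib+anti-PD1, and 3.19, 3.42 and 3.62 FPKM in Co+Len@OVA+anti-PD1. It rose by 1.38 (log2, adjusted p = 0.0088) against Control, Eomes rose by 1.09 (adjusted p = 0.011 in the fit of all genes, since it passed the filter only through the nanocluster group), and Ikzf3, encoding the lymphoid factor Aiolos, rose by 1.23 (adjusted p = 0.0301). Tox, which exhausted T cells and developing innate lymphoid cells use, gave -0.84 (adjusted p = 0.00428) in Co+Len@OVA+anti-PD1 and -1.12 (adjusted p = 0.00165) in Lenvatinib+anti-PD1, each against Control. Its Control libraries, at 5.42, 6.59 and 6.35 FPKM, were closer together than those of Tbx21. Which cells of the tissue carried Tox was not tested. Of 11 factors tested, 6 rose and 2 fell against Control, beside 20.9% and 12.7% of all genes. The 6 include Eomes, so the counts of factors are given as a description. Under median-of-ratios scaling 5 rose and 2 fell, beside 14.4% and 17.6% of all genes. Upper quartile scaling gave the same counts, beside 16.3% and 15.9%. The median of the factors was 0.49, and 0.27 without Control 1. In Lenvatinib+anti-PD1 against Control none rose and 3 fell, beside 13.8% and 9.87% of all genes. Without Control 1, 6 fell, where 17.4% of all genes were called lower.

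Cytokines that NK and T cells respond to, and their receptors, were mostly higher: 8 of 11 tested rose against Control and none fell, beside 20.9% and 12.7% of all genes. The median was 1.09 (0.69 without Control 1). In Lenvatinib+anti-PD1 against Control 4 rose, beside 13.8% of all genes. Il2rg, the shared gamma chain, rose by 2.04 (log2, adjusted p = 0.014), Il21r by 1.94 (adjusted p = 0.00769) and Il2rb, through which IL-2 and IL-15 signal, by 1.37 (adjusted p = 0.0368). Il15 itself, the survival factor of NK cells, stood at 1.05 to 1.93 FPKM in Control and 1.97 to 2.43 FPKM in Co+Len@OVA+anti-PD1, and its difference of 0.50 did not pass (adjusted p = 0.058). Ifng, the effector cytokine of NK and T cells, stood at 0.433, 1.57 and 1.09 FPKM in Control, 3.10, 3.30 and 2.90 FPKM in Lenvatinib+anti-PD1, and 4.59, 6.06 and 5.22 FPKM in Co+Len@OVA+anti-PD1, with no overlap between groups. It rose by 1.99 (adjusted p = 0.00141) and 1.31 (adjusted p = 0.00979) against Control.

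Effector transcripts were higher too. Of 11 cytotoxic granule genes tested, 8 rose and none fell in Co+Len@OVA+anti-PD1 against Control, beside 20.9% and 12.7% of all genes, with a median of 1.23. Gzmb, encoding granzyme B, rose by 2.51 (log2, adjusted p = 0.00469), and Prf1 (perforin), Nkg7 and Gzmk rose by 2.49, 2.34 and 2.26. Of 17 other NK surface molecules tested, 8 rose and none fell, with a median of 1.10 that became 0.68 without Control 1, led by Cd7 (1.97, adjusted p = 0.018), Cd27 (1.83, adjusted p = 0.015) and Fasl (1.64, adjusted p = 0.00258), while Itgal gave 1.56 (adjusted p = 0.0563). T cells also make most of these. With libraries 1 and 2 alone no gene of the adaptor, ligand, transcription factor, cytokine, granule, surface molecule or T cell lists passed in any comparison. At an unadjusted p under 0.05 in that fit, 16 of 20 T cell markers and 8 of 11 granule genes were higher against Control, as were 13.6% of all genes tested.

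The genes whose log2 levels over the 9 libraries were most like those of the receptors were found among all genes tested. Nearest to Klrd1 were Ifi47 (r = 0.998), Ankfy1 and Irgm1, nearest to Klrc1 were F730043M19Rik (r = 0.996), Cst7 and Trbc1, and nearest to Klrk1 were Cpsf2 (r = 0.994), Tor4a and Tmem51. Klre1 was most like Hmgxb4 (r = 0.992), Zfp574 and Dnaja1, and Klrg1 most like Gm49747 (r = 0.943), Nemp1 and Sec24b. For the mean standardised level of the 5 receptor genes tested, the nearest were Irgm1 (r = 0.995), Ifi47, Cd72, Aif1 and Ercc2.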

How the data were processed

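Polyadenylated tumour RNA was sequenced as 9 strand-marked (dUTP) libraries in paired reads of 150 bases, per the labels' protocols. Tools named in the submitters' processing notes are fastp, StringTie and edgeR, with no order or settings. The aligner and the build were not given in the sources used here. Of the table's transcript identifiers, 99.2% occur in GENCODE M21. The authors deposited FPKM under a name that says counts. Only 23.3% to 25.8% of low values lay within 0.05 of whole-fragment steps, so reads were not recovered and depth is unknown.

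The 15353 genes whose mean reached 0.5 FPKM were fitted in limma 3.58.1 (R 4.3.3) on log2(FPKM + 0.5), all 9 libraries in 1 fit, with a variance trend and robust moderation, and with Benjamini-Hochberg adjustment at 0.05 over all genes tested. "Rose" and "fell" mean past that threshold. Within-library ratios were compared by exact two-sided permutation tests. The fit was also run on simulated data as a check of the code, and no result here rests on that run. Alternatives were other pseudocounts, filters, scalings, variance models, 2-group fits, a replicate block, libraries 1 and 2 only, and each library left out. Ratios without a pseudocount, and the other lists' counts and genes under other settings, were chosen after seeing the data. Same-numbered libraries of different groups did not deviate together, so numbers were not treated as pairs.

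The 8 genes and the lists were chosen with earlier results of these data known. All 8 are named. From each list of receptors, adaptors, ligands, factors, cytokines, effectors, surface molecules and other lymphoid classes, up to 4 tested genes with the largest absolute log2 fold change in Co+Len@OVA+anti-PD1 against Control are named, plus Tyrobp, Hcst, H2-T23, Raet1 genes, Ulbp1, Il15, Eomes, Tbx21, Cd3e, Cd8a, Gzmb and Ifng. The lists of B cells, myeloid cells and non-immune tissues are given by counts and sums only. Cdh1, Cdh2, Klri1, Klri2 and Klrb1b are named outside that rule. For each receptor gene tested, the 3 genes with the highest Pearson correlation are given. The p-values measure the spread between these libraries.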

Additional observations from a re-analysis of the deposited data

How the results depend on the processing

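The calls of Klrd1 and Klrc1 in Co+Len@OVA+anti-PD1 against Control were kept whenever any 1 library was left out. The counts of receptor genes that follow include Klre1, tested in the filtered fits only through its high group, so they are a description. In this comparison 3 to 4 passed when 1 library was left out. The count of 3 was 4 with no filter (7.81% of all genes called higher), 2 with a filter of mean 1 FPKM (22.1%), and 0 with libraries 1 and 2 only (0.111%). In Lenvatinib+anti-PD1 against Control the count of 1 became 0 with no filter, with a filter of mean 1 FPKM, in a fit of the 2 groups compared only, with a replicate block and with libraries 1 and 2 only, and it was 0 to 2 when 1 library was left out. Between the treated groups the count of 2 became 1 with a pseudocount of 0.1, with a filter of mean 1 FPKM and with the replicate block, 3 with a pseudocount of 1, 4 in the fit of the 2 groups, and 0 with libraries 1 and 2 only, and it was 1 to 4 when 1 library was left out, with 4 without Control 1. The all-gene count called higher there was 2657, and 3962 in the fit of the 2 groups and 4224 without Control 1. It was 2564 and 2739 with pseudocounts of 0.1 and 1, 1853 with the replicate block and 68 with libraries 1 and 2 only, each of 15353 genes. With a filter of mean 1 FPKM it was 2477 of 13384. When 1 library was left out, 7.93% to 27.5% of all genes were called higher between the treated groups. In the receptor counts a filter of mean 1 FPKM leaves Klre1 untested. The cause of the other changes was not tested.

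The replicate block left the count against Control in Co+Len@OVA+anti-PD1 at 3. Same-numbered libraries correlated in their deviations from group means at -0.248 to 0.0785, and a library correlated best with its own number in 2 of 9 cases, so the block pairs libraries by number only.

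Directions turned for values near 0. Klrk1 in Lenvatinib+anti-PD1 against Control ranged from -0.11, without Control 1, to 0.43 when 1 library was left out. Klrg1 between the treated groups was 0.0026 with a pseudocount of 0.1, and it ranged from -0.095 to 0.17 when 1 library was left out, with 0.0060, 0.070 and 0.17 without Co+Len@OVA+anti-PD1 1, Co+Len@OVA+anti-PD1 2 and Lenvatinib+anti-PD1 1. The log2 ratio of Klrc1 to Klrd1 between Co+Len@OVA+anti-PD1 and Control ranged from -0.26 to 0.10 when 1 library was left out, and between Lenvatinib+anti-PD1 and Control from -0.34 to 0.022. The log2 ratio of Klrc1 to Klrc2 in Lenvatinib+anti-PD1 against Control was 0.31 with the pseudocount and -0.23 without it.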

Other observations

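Other lymphocyte classes that can carry these receptors were measured. Of 9 markers shared by type 1 innate lymphoid cells, 3 rose and 1 fell in Co+Len@OVA+anti-PD1 against Control, beside 20.9% and 12.7% of all genes. Under both other scalings and without Control 1, 2 rose, and the median of 0.58 was 0.041 without Control 1. Cxcr6, a chemokine receptor that liver-resident lymphocytes and CD8 T cells carry, rose by 2.15 (log2, limma adjusted p = 0.0104), and Itga1, encoding CD49a, by 0.76 (adjusted p = 0.049). Tnfsf10, encoding the death ligand TRAIL, rose by 1.44 (adjusted p = 0.0145). Xcl1, a chemokine of NK and CD8 T cells, stood at 0.125, 1.22 and 0.845 FPKM in Control and at 3.79, 3.82 and 1.70 FPKM in Lenvatinib+anti-PD1, where it rose by 1.61 (adjusted p = 0.0351), and at 1.10, 2.72 and 2.23 FPKM in Co+Len@OVA+anti-PD1, which gave 1.09 (adjusted p = 0.092).

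Of 5 gamma-delta T cell markers tested, 2 were called higher against Control, beside 20.9% of all genes. Trgc2, a constant segment of the T cell receptor gamma locus, stood at 0.280, 1.99 and 1.60 FPKM in Control, 4.56, 4.19 and 3.90 FPKM in Lenvatinib+anti-PD1, and 12.6, 7.10 and 9.34 FPKM in Co+Len@OVA+anti-PD1, with no overlap between groups. It rose by 2.63 (log2, adjusted p = 0.00285) and 1.56 (adjusted p = 0.028) against Control. Trgc1, another gamma constant segment, passed the filter only through the nanocluster group and rose by 1.68 (adjusted p = 0.0338) in the fit of all genes. The count of 2 includes Trgc1 and is given as a description. Trdc, the delta constant segment, gave 0.19 (adjusted p = 0.357) and -0.15 (adjusted p = 0.498).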
